A study of Petromyzon marinus with 4 samples.

Results

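WT1 and EMX2, a pair of transcription factor genes of the developing gonad, were followed through single-cell RNA measurements of sea lamprey (Petromyzon marinus) gonads. They were chosen by name: EMX2 is listed under its symbol and WT1 as LOC116939910, which carries the WT1 symbol by its gene ID, so they make up 2 of the 21967 features. Gonads of wild-caught animals with the wildtype genotype and of unknown age were studied in 4 libraries. Larval libraries 1 and 2 came from larvae with undifferentiated gonads, and the others came from 1 female transformer library and 1 male transformer library, a transformer being an animal that has metamorphosed and has a determined sex. The labels do not give the number of animals in a library. A kit made for isolating neurons was used to break up the gonads, a sorter enriched the live cells, and a PIPseq kit captured RNA at the 3′ end.

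WT1 is a zinc-finger protein made in the mesoderm that forms gonads and kidneys, and in mice neither organ forms without it. In the mammalian gonad it is known from the coelomic epithelium, the supporting cells and part of the stroma, and in the kidney from podocytes, the filtering cells. EMX2 is a homeobox protein of the same urogenital ridge, also needed in mice for kidneys and gonads to form. Neither role was measured here, and the sea lamprey gonad lies close to the kidney, so kidney cells were looked for among the cells captured.

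Barcodes with at least 1875 counts and 250 genes numbered 19654 and 20592 in the larval libraries, 30598 in the female and 40223 in the male. After removal of likely doublets, 18647, 19515, 28976 and 38210 cells remained, with medians of 5326, 5756, 4596 and 7287.5 counts. Any pair of libraries shared 6 to 13 barcodes. The cells formed 40 clusters, built without the counts of WT1 and EMX2. A cluster was named only where at least 3 markers of a cell type were raised in it, more than of any other type. Outside germ cells, a minimum share of the type's found markers also had to be raised. Clusters whose leading genes held more markers of another type stayed unnamed. These rules gave germ cell-like, stromal-like, renal tubule-like and endothelial-like clusters and many unnamed ones. Another 3 clusters were called mixed because they held germ cell markers beside leading genes of other clusters. Markers do not allow more: of the supporting cell list 2 of 23 genes were found in the features, of the podocyte list 4 of 15 and of the steroidogenic list 1 of 9, and no cluster was named from them. All cells outside the germ cell-like and mixed clusters are called somatic. Levels are CPM, a gene's share of the counts of named features on the usual per-1000000 scale, with exact 95% Poisson intervals that cover counting error only. The levels of WT1 and EMX2 are not compared with each other, because a 3′ count depends on how each transcript end was annotated.

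WT1 was higher in the larval gonads than in either transformer library. Over all cells, it stood at 5.97 CPM (5.60 to 6.35) in larval library 1 and 6.37 (6.02 to 6.74) in larval library 2, a mean of 6.17 ± 0.285 (SD, n = 2). The female library had 2.13 CPM (1.93 to 2.34) and the male 1.38 (1.25 to 1.52). No interval of a transformer library reached the larval ones. The counts behind these values were 996 and 1217 in the larval libraries, 417 in the female and 403 in the male. At most 5.29% of the cells of any library had a WT1 count, in larval library 2, and the lowest share was 1.02% in the male.

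In somatic cells the larval libraries again had the most WT1, but the order of the sexes changed. Larval libraries 1 and 2 had 7.85 and 8.39 CPM, the male 4.24 (3.66 to 4.89) and the female 2.25 (2.04 to 2.48). The female to male log2 ratio was 0.63 (0.43 to 0.83) over all cells and -0.91 (-1.17 to -0.66) over somatic cells. Germ cell-like cells had little WT1 in every library: 1.74 and 1.84 CPM in the larval libraries, 0.610 in the female (9 counts) and 0.786 in the male. They supplied 74.0% of all counts in male cells and 7.52% in female cells, and in sums over cells fewer cells of a type and less RNA per cell cannot be told apart. With 1 library of each sex, these ratios have no replicate check.

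**Figure D1:**
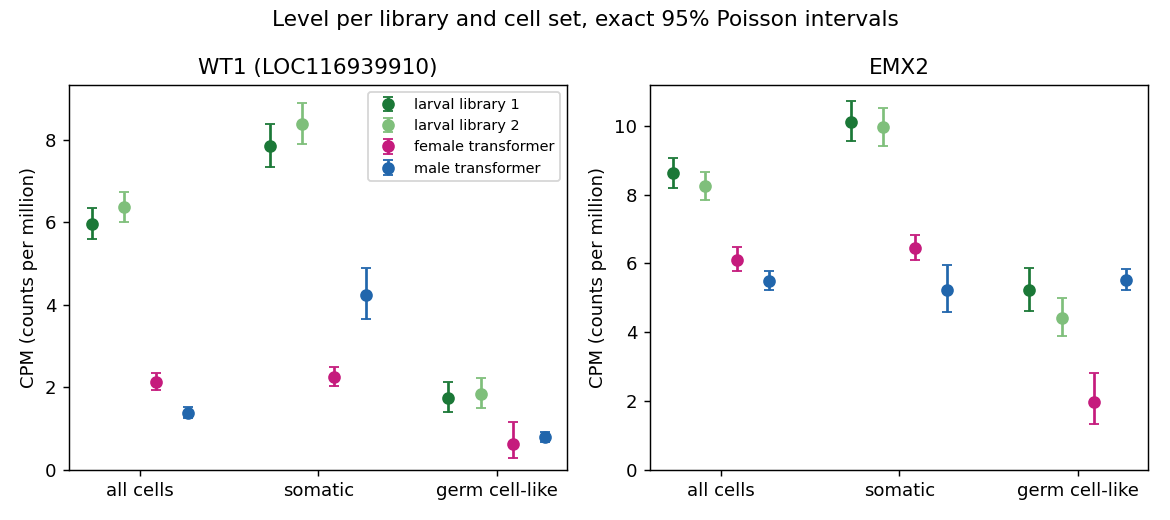
WT1 (left) and EMX2 (right) in CPM per library, over all cells, somatic cells and germ cell-like cells. Points are library values and bars exact 95% Poisson intervals. WT1 in somatic cells is 7.85 and 8.39 CPM in the larval libraries, 2.25 in the female and 4.24 in the male, whereas EMX2 in male germ cell-like cells, at 5.53 CPM, lies beside the larval values.

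The lower WT1 level after metamorphosis did not pass the test across all genes. For transformer against larval libraries, n = 2 each, edgeR's quasi-likelihood test gave a log2 fold change of -1.42 ± 0.337 (SE) over all cells, with an unadjusted p of 0.0170 and an adjusted p of 0.209. None of the 2 genes was called, and neither was any of the 18981 genes tested (0%), of which 3380 had an unadjusted p under 0.05. DESeq2 called WT1 at -1.35 with an adjusted p of 0.0369, among 1768 genes (8.57% of those it tested). In somatic cells the log2 fold change was -0.74 ± 0.469 with an adjusted p of 0.382 by edgeR, which called 687 of 18510 genes (3.71%). On library totals, the scale of the CPM values, it was -1.33 (adjusted p = 0.100), where the median of all genes stood at -0.50. In germ cell-like cells it was -0.91 ± 0.273 with an adjusted p of 0.307, where edgeR called 0 of 18046 genes (0%), 2716 lay under 0.05 before adjustment, and DESeq2 called 593 (2.92%). The transformer side joins a female and a male library, so its spread holds the sex difference as well. Without the male library, the somatic log2 fold change of WT1 was -1.46 with an adjusted p of 2.23e-08, where edgeR called 56.1% of all genes. Without the female library it was -0.27 with an adjusted p of 0.105, where 49.0% were called. Over all cells it was -1.08 without the male (adjusted p = 0.000245, 58.8% of genes called) and -1.81 without the female (adjusted p = 2.15e-05, 69.0% called). In germ cell-like cells the adjusted p was 0.0452 without the male (51.2% of genes called) and 0.00317 without the female (65.0% called, edgeR). Since about as many or more of all genes were called as were not, nothing particular to WT1 is read from these calls. Each of these leaves 1 transformer library, whose spread is assumed to be that of the larval pair.

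Within the larval gonad, WT1 was highest in a few clusters, most of them stromal-like. Cluster 8, stromal-like with raised COL6A1, COL6A2, COL6A3, SPARC and VIM, had the highest level among clusters with at least 50 cells in both larval libraries, at 17.1 CPM (14.8 to 19.5) and 18.4 (16.3 to 20.8). Cluster 2 followed at 14.8 (13.3 to 16.3) and 14.6 (13.2 to 16.1) CPM. It was unnamed, since of the stromal markers only COL6A1 and SPARC were raised in it. Clusters 8 and 2 overlapped in larval library 1 and not in library 2. Cluster 2 held 38.5% and 34.4% of the WT1 counts of the larval libraries, and cluster 8 held 20.8% and 22.1%.

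Cluster 16, stromal-like and led by the cell division genes UBE2C and KIF23, had 9.61 (7.79 to 11.7) and 13.2 (11.1 to 15.5) CPM. Its cells were deeper than those of cluster 8, with medians of 11959 and 13212 counts against 5858 and 6562. The stromal-like clusters 25 and 6 came next, with 9.05 and 7.21 CPM and with 5.14 and 7.38 CPM. Cluster 6 had the collagen VI genes COL6A1 and COL6A2 among its leading genes and raised PDGFRA, a growth factor receptor of stromal cells. Cluster 33, unnamed and small, lay among them at 7.39 (4 counts) and 7.83 (6 counts) CPM. The interval of cluster 33 overlapped those of clusters 6 and 25 in each larval library, and clusters 6 and 25 overlapped in library 2 only.

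The other clusters with at least 50 cells in both larval libraries had less WT1. Stromal-like cluster 32 had 4.26 and 5.77 CPM. Endothelial-like cluster 17 had 2.74 and 4.76 CPM, renal tubule-like cluster 13 had 1.64 and 2.80, and the germ cell-like clusters 19 and 24 had between 1.72 and 1.85. Cluster 9 had 1.10 and 0.592 CPM, from 6 counts in 1570 cells and 4 in 1817 cells. In cluster 31 no WT1 count was seen in 52 and 113 cells, which allows up to 12.8 and 8.73 CPM at 3 counts, so a low level could not be detected there. The larval libraries gave a similar picture by cluster: their intervals overlapped in 19 of 19 clusters. Across these clusters their WT1 values had r = 0.934, a description over clusters that share the same libraries. Over the stromal-like cells together, the log2 ratio of library 2 to library 1 was 0.24 (0.06 to 0.42). The larval libraries thus differed there by more than counting error.

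Free RNA was compared with these values. It was taken from barcodes ranked 40000 to 80000. In the male library 224 of these reached 1875 counts and were left out, so that none was a called cell. Whether shallow cells remained among them was not tested. The barcodes used had 4.13, 8.15, 4.31 and 3.06 CPM of WT1 in larval library 1, larval library 2, the female and the male. Given how few counts such barcodes had, free RNA at this composition would add 0.0815 and 0.152 CPM to the larval somatic cells. It would add 0.210 CPM to the female and 0.2395 to the male somatic cells, and 0.1377 to the male germ cell-like cells. The lower bound of the WT1 level lay above the value expected from free RNA in 18 of 20 and 14 of 19 clusters of the larval libraries, 11 of 15 of the female and 12 of 15 of the male. In cluster 8 the expected values were 0.0833 and 0.152 CPM, and in cluster 9 they were 0.156 and 0.296, within the interval of the measured level in library 2. To compare shares of cells across clusters of unequal depth, each cell was thinned to 1875 counts. WT1 was then seen in 3.70% (2.89 to 4.65) and 3.13% (2.42 to 3.99) of the cells of cluster 8, unthinned 9.32% and 10.9%. Of cluster 9, in which no marker of any list was raised, 0.191% and 0.0550% of the thinned cells had a count, unthinned 0.382% and 0.220%. The median depths of these clusters in larval library 1 were 5858 and 3005 counts.

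**Figure D2:**
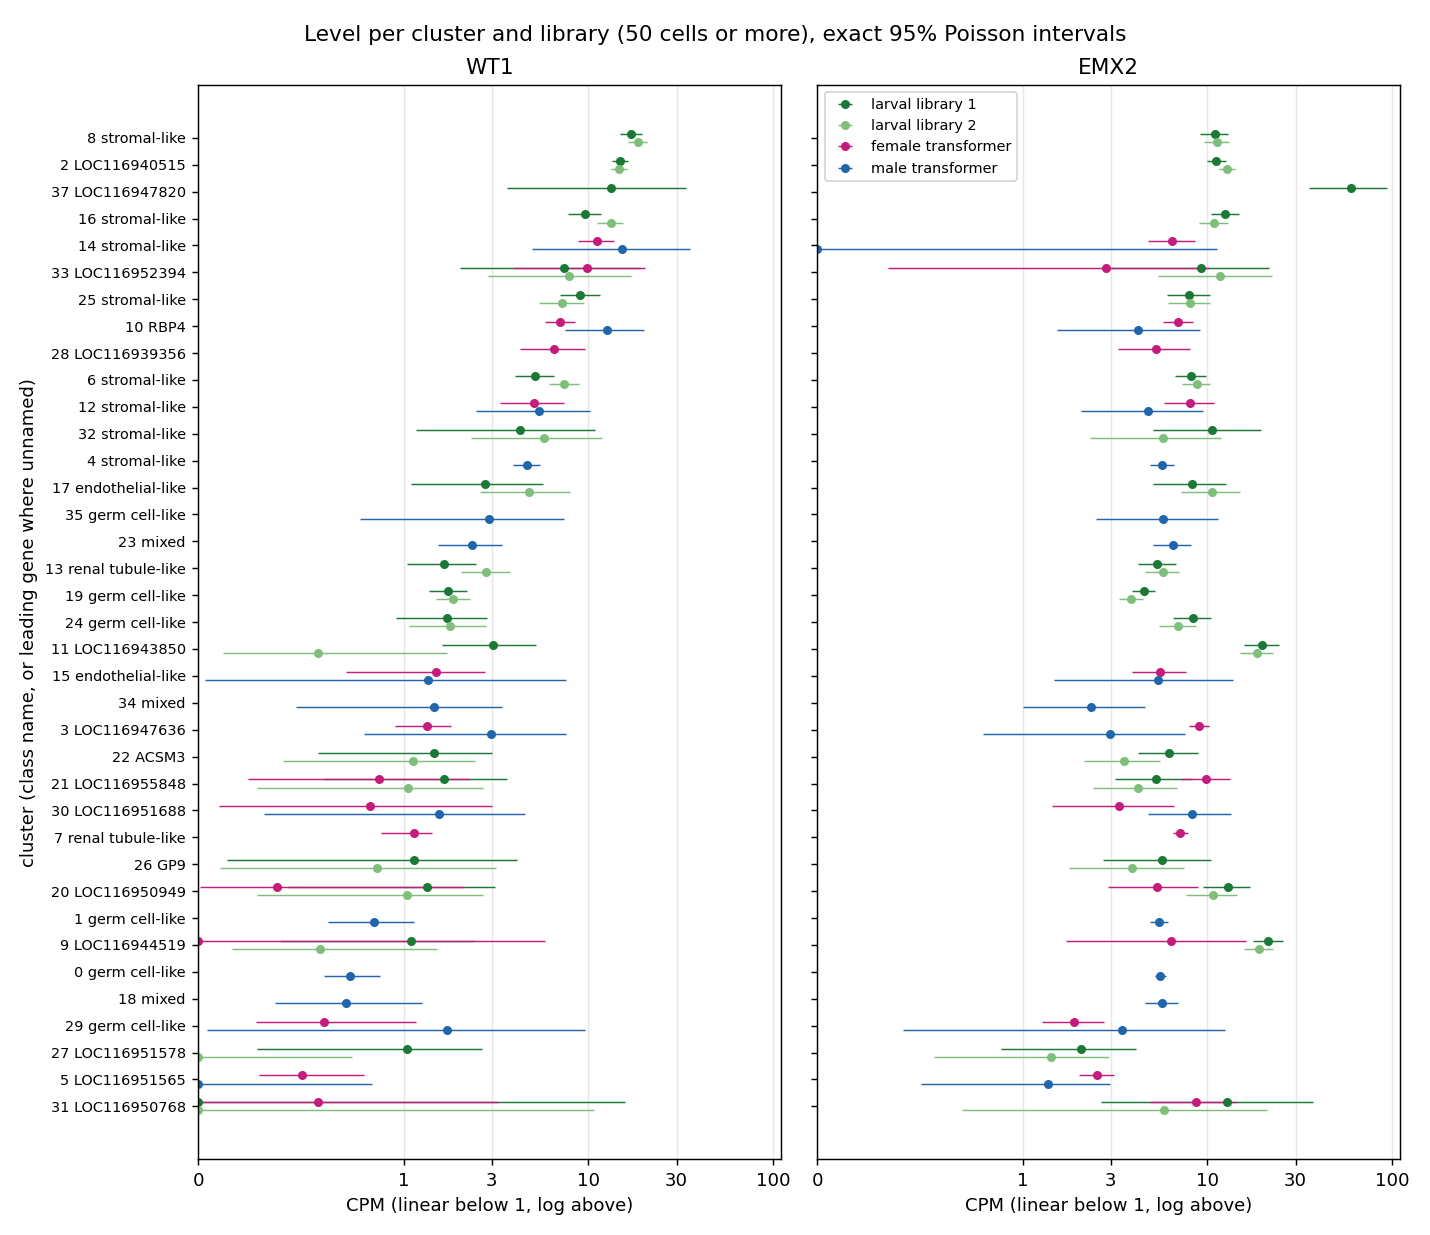
WT1 (left) and EMX2 (right) in CPM for each cluster and library with at least 50 cells, clusters ordered by WT1 pooled over libraries. Points are values, bars exact 95% Poisson intervals, and the axis is linear below 1 and logarithmic above. WT1 runs from 0 to 18.4 CPM, with cluster 8 at the top, while most EMX2 values lie close together and clusters 37, 9 and 11 stand highest.

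In the transformers, WT1 was highest in stromal-like cluster 14. In the female library it had 11.1 CPM (8.83 to 13.7) there. This cluster was led by WIF1, a secreted inhibitor of WNT signals. Unnamed cluster 10, led by RBP4, the carrier of retinol in blood, and UPK3A, a gene of urothelium and mesothelium, had 7.02 CPM (5.79 to 8.44). In cluster 10, 4 of the 7 stromal markers found were raised: COL6A1, COL6A2, COL6A3 and SPARC. It stayed unnamed because its leading genes held a marker of another list. Clusters 28 and 12 had 6.55 (4.28 to 9.59) and 5.05 (3.33 to 7.35), and cluster 33 had 9.88 from 7 counts. Cluster 28 was unnamed with COL6A1, COL6A2 and SPARC raised, too few of the stromal list to name it. The intervals of clusters 10, 28 and 12 overlapped each other.

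Most female cells lay in clusters with little WT1. Cluster 3, led by LOC116947636 and with TNNC1 and WNT6 among its leading genes, held 7434 female cells and had 1.33 CPM. It was unnamed, although the stromal markers COL6A2 and SPARC were raised in it, so raised stromal markers did not always come with much WT1. Cluster 5, in which no marker was raised, held 5462 cells and had 0.504 CPM. Renal tubule-like cluster 7 held 5030 cells and had 1.14 CPM (0.888 to 1.43). Its great number of counts still made it the source of 17.3% of the female WT1 counts, against 27.1% from cluster 10 and 20.1% from cluster 14.

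In the male library the same clusters led, although small. Cluster 14 had 15.2 CPM from 5 counts in 100 cells and cluster 10 had 12.6 (7.45 to 19.9) from 18 counts in 313 cells. Stromal-like cluster 4, which was nearly all male with 6628 cells, had 4.65 CPM (3.93 to 5.47) and 36.2% of the WT1 counts. Germ cell-like clusters 0 and 1 had 0.739 and 0.857 CPM. In clusters 10, 12 and 14, which both transformer libraries held, the female and male intervals overlapped: 7.02 and 12.6 CPM in cluster 10, 5.05 and 5.40 in cluster 12, and 11.1 and 15.2 in cluster 14.

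Taken by class, the stromal-like cells had 10.1 CPM (9.15 to 11.1) of WT1 in larval library 1, 11.8 (10.9 to 12.8) in library 2, 8.77 (7.23 to 10.5) in the female and 4.79 (4.07 to 5.59) in the male. The female interval overlapped that of larval library 1, and the male value lay below all others. The male value depended on which clusters were named: at a Leiden resolution of 2, 732 male cells were stromal-like in place of 7338, with 6.28 CPM (3.44 to 10.5), an interval that overlapped those of the female and of larval library 1 at that resolution. With each library clustered on its own, no male cluster was stromal-like. Different clusters held the class: 6, 8, 16, 25 and 32 in the larvae, 12 and 14 in the female, and mainly 4 in the male. The female to male log2 ratio in the class was 0.87 (0.51 to 1.23), opposite in sign to that over somatic cells. Stromal-like cells made up 32.8% and 32.1% of the larval cells, 12.3% of the female cells and 19.2% of the male cells, and the part of these shares in the somatic and all-cell differences was not tested.

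The class held more of the WT1 counts than of all counts in every library. It gave 44.5% and 48.7% of WT1 counts in the larval libraries against 26.4% and 26.2% of all counts. In the female it gave 27.3% of WT1 counts and 6.63% of all counts, and in the male 39.7% and 11.4%. For EMX2 the corresponding shares of the gene's counts were 30.4%, 31.0%, 7.68% and 11.6%. Germ cell-like cells gave 18.6% and 16.5% of larval EMX2 counts against 30.7% and 30.8% of all counts. A raised share of WT1 counts was not particular to the stromal-like class. Unnamed cells gave 43.6%, 37.6% and 6.95% of WT1 counts in larval libraries 1 and 2 and the male. Their shares of all counts there were 32.98%, 33.03% and 3.54%. In the female the interval of their WT1 share, 45.9% to 55.7%, included their share of all counts. Cluster 10, unnamed with stromal markers raised, was counted among them. Renal tubule-like cells gave 2.31%, 3.70% and 17.3% of the WT1 counts in the larval and female libraries against 8.38%, 8.42% and 32.4% of all counts, and the male library held none of these cells.

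**Figure D3:**
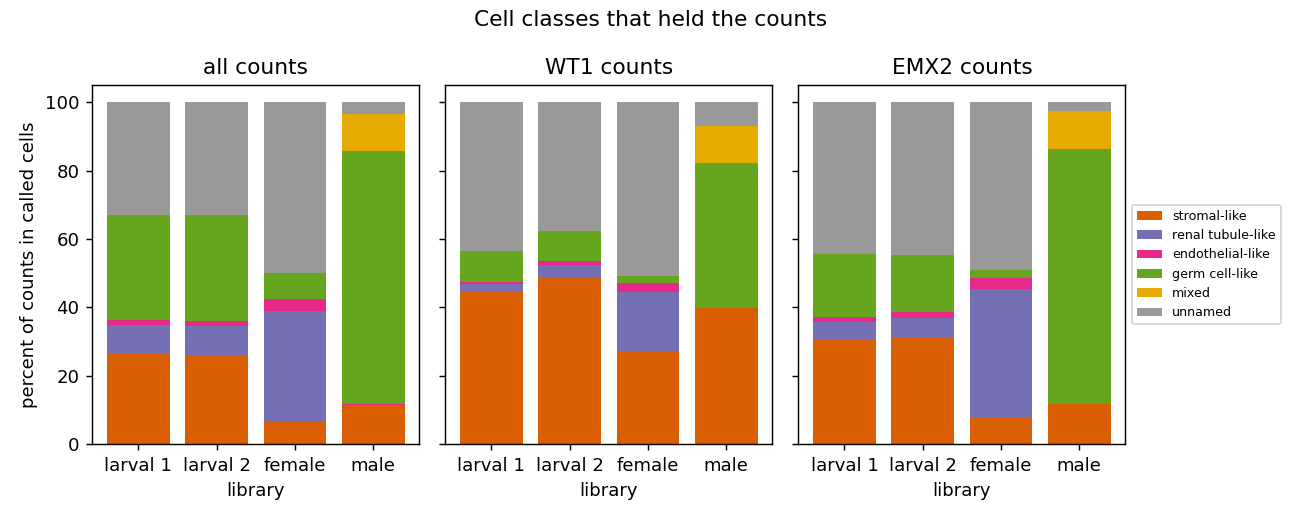
Percent of all counts, of WT1 counts and of EMX2 counts that came from each cell class, per library. Each bar sums the called cells of 1 library. Stromal-like cells held 44.5% and 48.7% of larval WT1 counts and 26.4% and 26.2% of all counts, whereas their shares of larval EMX2 counts were 30.4% and 31.0%.

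EMX2 varied less between libraries than WT1. Over all cells it had 8.62 CPM (8.18 to 9.08) in larval library 1, 8.25 (7.85 to 8.67) in library 2, 6.11 (5.77 to 6.47) in the female and 5.49 (5.23 to 5.77) in the male. The larval values lay above the transformer values. Between 3.91% and 7.41% of the cells of a library had a count. In somatic cells the values were 10.1, 9.96, 6.45 and 5.23 CPM in the same order, a larval mean of 10.04 ± 0.115 (SD, n = 2).

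The stage difference of EMX2 did not pass edgeR's test in any cell set. The log2 fold change was -0.15 ± 0.222 (adjusted p = 0.740) over all cells, -0.25 ± 0.156 (adjusted p = 0.380) over somatic cells and 0.06 ± 0.571 (adjusted p = 0.970) over germ cell-like cells. Without the female library, EMX2 was called by edgeR at -0.26 over all cells (adjusted p = 0.0308) and at 0.59 over germ cell-like cells (adjusted p = 0.00202). Without the male it was called at -0.25 over somatic cells (adjusted p = 0.0458) and at -0.83 over germ cell-like cells (adjusted p = 0.0188). The same fits called 69.0%, 65.0%, 56.1% and 51.2% of all genes. Scaling bears on these values. On library totals without TMM, edgeR's adjustment for composition, the somatic value was -0.78 (adjusted p = 0.102), while the median of all genes stood at -0.50. On that scale the median of all genes was -0.36 over all cells and -0.35 over germ cell-like cells. Over all cells the female to male log2 ratio of EMX2 was 0.15 (0.05 to 0.26).

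EMX2 was detected widely. Among the large larval clusters it was highest in clusters 9 and 11, which had little WT1. Clusters 9 and 11 had 21.4 (17.7 to 25.6) and 19.8 (15.8 to 24.5) CPM in larval library 1 and 18.9 (15.8 to 22.5) and 18.5 (14.98 to 22.6) in library 2. Cluster 2 had 11.2 (9.93 to 12.5) and 12.8 (11.5 to 14.2) CPM, below clusters 9 and 11 in both libraries. Clusters 20, 16 and 8 had values between 10.7 and 12.9 CPM, and their intervals overlapped that of cluster 2 in each library. No marker of any list was raised in clusters 9 and 11, and their leading genes, LOC116944519 in cluster 9 and LOC116943850 and PLEKHS1 in cluster 11, do not name them.

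Their cells were shallow, with medians between 2933 and 3224 counts. After thinning to 1875 counts, EMX2 was seen in 3.57% (2.71 to 4.61) and 3.58% (2.77 to 4.54) of the cells of cluster 9, unthinned 6.75% and 6.88%. In cluster 2 these shares were 2.25% (1.82 to 2.76) and 2.49% (2.04 to 3.02), unthinned 6.59% and 8.27%, so that the thinned intervals of these clusters touched in both libraries. Free RNA had 9.25, 6.21, 8.21 and 6.16 CPM of EMX2 in larval library 1, larval library 2, the female and the male. It would add 0.183 and 0.116 CPM to the larval somatic cells, 0.4 to the female ones and 0.483 to the male ones.

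A small unnamed cluster, 37, was higher still. It had 59.5 CPM (35.3 to 94.1) in larval library 1, from 18 counts in 13 of 52 cells, and 28.1 CPM (10.3 to 61.2) in library 2, from 6 counts in 40 cells. Among its leading genes were PHF12 and LRRC9. Germ cell genes PIWIL2, TDRD9, MEIOB and TERB1 were raised in it beside 4 stromal markers, so it was given no name. WT1 had 13.2 and 18.8 CPM there, from 4 counts in each library. The transformer libraries held no cell of this cluster.

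The lowest larval EMX2 lay in cluster 27, at 2.08 (8 counts) and 1.42 CPM (7 counts). Renal tubule-like cluster 13 had 5.36 and 5.72 CPM, and germ cell-like cluster 19 had 4.55 and 3.87. The larval intervals overlapped in 19 of 19 clusters, with r = 0.890 between the libraries over clusters.

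In the transformers EMX2 had no such peak, but these libraries held few cells of the clusters that were highest in the larvae. Cluster 9 had 90 female and 20 male cells, against 1570 and 1817 in the larval libraries. Cluster 11 had 7 and 6, against 1297 and 1438. Female clusters with at least 50 cells ranged from 1.90 CPM in germ cell-like cluster 29 to 9.88 (7.21 to 13.2) in cluster 21, where the kidney regulators PAX2 and LHX1 were raised. Cluster 3 had 9.03 (7.997 to 10.2), stromal-like cluster 12 had 8.04 (5.82 to 10.8) and renal tubule-like cluster 7 had 7.14 (6.50 to 7.83). The intervals of clusters 21, 3 and 12 overlapped. Cluster 5 had 2.52 CPM, below all of these. Because of its many counts, cluster 7 held 37.8% of the female EMX2 counts and cluster 3 held 23.2%. Cluster 9, with 90 female cells, lay within the female range given and so had at most 9.88 CPM there.

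Male EMX2 was nearly even over the clusters that held most of its counts. Clusters 0, 1 and 4, with 54.7%, 19.0% and 11.1% of the male EMX2 counts, had 5.55, 5.46 and 5.70 CPM, although clusters 0 and 1 are germ cell-like and cluster 4 is stromal-like. The highest value was 8.30 (4.74 to 13.5) in unnamed cluster 30, from 16 counts. Unnamed male cells together had 4.05 CPM (2.92 to 5.48). No EMX2 count was seen in the 100 male cells of cluster 14. Among stromal-like cells EMX2 had 9.93, 9.75, 7.08 and 5.59 CPM in larval library 1, larval library 2, the female and the male, and the female and male intervals overlapped.

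WT1 and EMX2 did not share a pattern across somatic clusters. Over the 28 somatic clusters with at least 100 cells, log2(CPM + 1) of the genes had r = 0.279, where the median gene had r = 0.287 with WT1 and 0.274 with EMX2. These points share libraries and depth, so no test is given. Clusters 8, 2 and 16 were high for both genes in the larvae, while clusters 9 and 11 were high for EMX2 and low for WT1.

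At the level of single cells, EMX2 was seen in 10.1% (8.12 to 12.5) of WT1-positive larval somatic cells in library 1 and in 6.05% (5.69 to 6.42) of WT1-negative ones. In library 2 the shares were 10.2% (8.35 to 12.3) and 6.60% (6.24 to 6.98). The WT1-positive cells were deeper, with medians of 7165 and 7924 counts against 5017 and 5432. After thinning, the shares were 2.62% (1.06 to 5.33) and 2.14% (1.93 to 2.37) in library 1 and 3.05% (1.33 to 5.93) and 2.07% (1.87 to 2.29) in library 2, from 7 and 8 cells with both genes. A difference was not detectable at this depth. In the female 4.40% and 3.89% of somatic cells with and without WT1 had EMX2, and in the male 1.70% and 2.44%, with overlapping intervals in each.

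**Figure D4:**
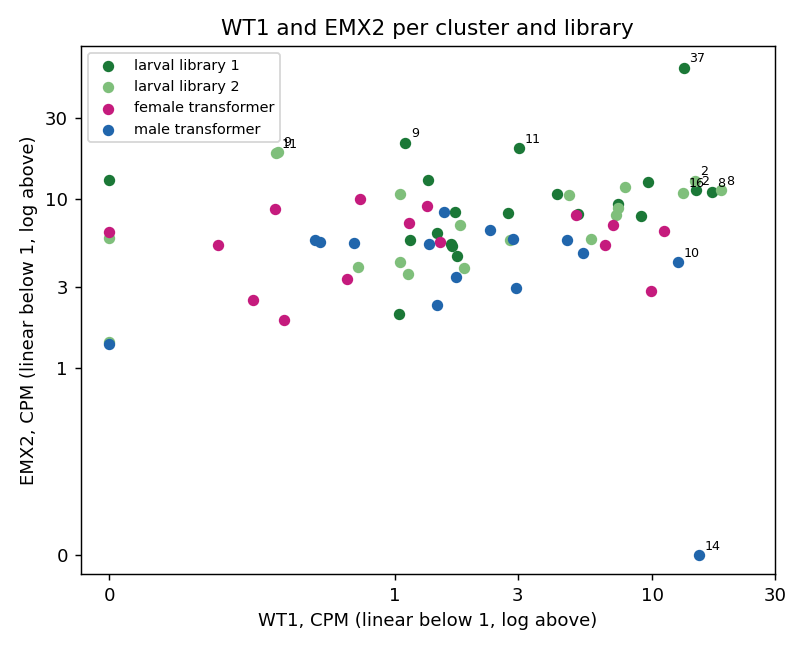
WT1 (horizontal) and EMX2 (vertical) in CPM for each cluster and library with at least 50 cells, both axes linear below 1 and logarithmic above. Each point is 1 cluster in 1 library and numbers mark clusters. In the larval libraries clusters 9 and 11 combine 18.5 to 21.4 CPM of EMX2 with 3.03 CPM or less of WT1, and cluster 8 combines 17.1 and 18.4 CPM of WT1 with 10.95 and 11.2 of EMX2.

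The genes whose pattern was most like that of WT1 were ranked by r over the same 28 clusters among 7674 genes. LOC116941325 came first at r = 0.955, and it remained first by Spearman correlation (0.929), over the 17 larval clusters (0.942) and over the 11 transformer clusters (0.985). It had 90.6 and 92.2 CPM in cluster 2 and 51.7 and 57.4 in cluster 8 of the larval libraries, 57.7 in cluster 14 of the female and 51.6 in that of the male. In cluster 9 it had 3.29 and 3.25 CPM. Next came LOC116948094 (0.895), LOC116943680 (0.879), LOC116945656 (0.873) and LOC116939363 (0.869), whose places changed between these settings. None of the 5 has a symbol in the gene table.

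For EMX2 the likeness was weaker and the order of the genes less stable. UTP3, a gene of ribosomal RNA processing, had r = 0.812, followed by PIGL, an enzyme of glycolipid anchor synthesis (0.795), LOC116937945 (0.792), LOC116954198 (0.771) and the zinc-finger gene ZNF335 (0.771). UTP3 had 68.6 and 50.3 CPM in cluster 9 and 14.7 and 12.2 in cluster 2 of the larval libraries. By Spearman correlation PIGL was first and UTP3 seventh, and over the transformer clusters alone UTP3 ranked 958. Its r there was still 0.815, but the median gene had r = 0.614 with EMX2 over those clusters.

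**Figure D5:**
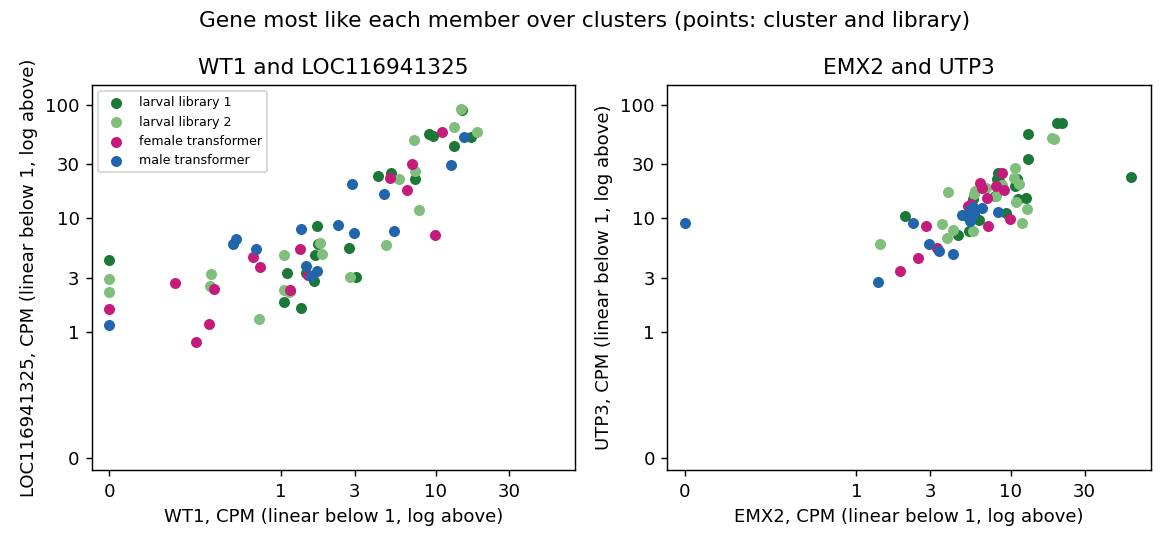
Left, WT1 and LOC116941325, and right, EMX2 and UTP3, in CPM for each cluster and library with at least 50 cells, on axes that are linear below 1 and logarithmic above. With libraries pooled per cluster, LOC116941325 had r = 0.955 with WT1 and UTP3 had r = 0.812 with EMX2. No r was computed within a library. Cluster 37 of larval library 1 lies apart at 59.5 CPM of EMX2 and 23.2 of UTP3.

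Few of the known partners of these genes could be looked up. Of 29 early gonad and urogenital ridge regulators 3 were found in the features, of 24 genes of sex determination 5, of 23 kidney regulators 7, and of 24 podocyte and WT1 target genes 4. In somatic cells 3, 5, 6 and 4 of them were tested, and none passed edgeR's stage test in either direction, against 3.71% of all genes (279 higher and 408 lower), and none passed in all cells or germ cell-like cells. By list, in the order given, the median somatic log2 fold changes were -0.16, -0.22, -0.27 and -0.13, beside a median of 0.02 over all genes. None of the list genes described below was chosen by passing a test.

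BASP1, a partner that turns WT1 into a repressor, had 14.0 and 17.8 CPM in the somatic cells of the larval libraries, 4.10 in the female and 4.96 in the male. In these cells both transformer values lay below the larval ones. Its log2 fold change was -1.25 ± 0.305 with an adjusted p of 0.101 (edgeR). By cluster it was highest in larval stromal-like clusters 25, 6 and 8, with 28.4 CPM in cluster 25 of library 1 and 27.7 in cluster 6 of library 2. WTAP, a WT1-binding protein of the RNA methylation complex, had 3.39, 3.03, 6.25 and 3.84 CPM in the same order (log2 1.17 ± 0.212, edgeR adjusted p = 0.0688). Over all cells, male BASP1 was 13.7 CPM, between the larval 11.6 and 14.8. In male germ cell-like cells BASP1 had 15.3 CPM, above the larval 6.09 and 8.08.

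FST, which encodes follistatin, an inhibitor of activins, was high in clusters 8, 10 and 14, which were among those with much WT1. Larval cluster 2 and male cluster 4 held the largest shares of the WT1 counts of those libraries. Their FST levels are not given here, and whether FST followed WT1 over clusters was not tested. It had 44.8 and 50.96 CPM in larval cluster 8, 59.2 in female cluster 14, 57.7 in male cluster 14 and 31.4 in female cluster 10. In somatic cells FST had 8.82, 8.80, 6.88 and 1.53 CPM in larval library 1, larval library 2, the female and the male. The sexes were thus in the opposite order to WT1, which had 2.25 CPM in female and 4.24 in male somatic cells.

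Of the podocyte genes, LMX1B, a homeobox gene of podocytes, and PTPRO, a podocyte receptor, were highest in renal tubule-like cluster 13 of the larvae, at 13.7 and 11.8 CPM and at 44.7 and 45.5 CPM, where WT1 had 1.64 and 2.80. PLCE1, a phospholipase of podocytes, had 13.4 and 14.4 CPM in that cluster, 12.1 and 13.4 in larval cluster 8, and its highest value, 39.7 CPM, in renal tubule-like cluster 7 of the female. In somatic cells none of these passed edgeR's stage test: the log2 fold change was -0.99 ± 0.160 for LMX1B (adjusted p = 0.0609), 0.36 ± 0.252 for PTPRO (adjusted p = 0.419) and 0.76 ± 0.379 for PLCE1 (adjusted p = 0.284). PAX2, a kidney regulator, had 61.3 and 63.0 CPM in cluster 13. It was not confined to renal tubule-like cells, since male somatic cells, which held none of them, had 24 CPM. The larval somatic values were 32.9 and 36.1 CPM and the female value 21.7.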

How the data were processed

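Counts per gene and barcode are the authors' deposited integers in 4 matrices. Whether a count is 1 molecule or 1 read, and the aligner, genome build and annotation, are not given in the sources used here, and barcodes were not restricted to cells. The members and gene lists were chosen with earlier results of these data known. Of 13987 features with a LOC number, 11871 matched a gene ID in the table of assembly UKy_Petmar_22M1.pri1.0 and 688 received a symbol; EMX2 was taken from the features alone. The 24 features without a gene name, with 2.54% to 4.91% of counts in cells, were left out.

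Cells had at least 1875 counts (5 times the largest background median, 375 counts), 250 genes and at most 20% mitochondrial counts. Scrublet's automatic threshold marked 0% of cells in each library, so scores at or above the 95th percentile were removed instead. scanpy 1.11.5 clustered the cells (1996 variable genes without WT1 and EMX2, 30 components, 15 neighbours, Leiden resolution 1). A marker was raised at a log2 ratio of at least 1 and in at least 10% of cells. Leading genes were the 5 with the largest ratio of CPM + 10. Clusters are named in the text if they were among the 5 highest of a library with at least 50 cells or held 10% of a gene's counts, and others where they show contrast, chosen after their values were seen.

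Counts summed per library were tested with edgeR 4.0.16 (TMM, filterByExpr, quasi-likelihood, two-sided, Benjamini-Hochberg over all genes, threshold 0.05), after a check on simulated counts with 200 changed genes, with DESeq2 1.42.0 as the alternative. The simulated counts had less spread between libraries than was fitted to these data. The check therefore does not show how many real changes the test would find. The transformer libraries are 1 per sex, and the p-values measure only the spread between these 4 libraries, which may be technical.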

Additional observations from a re-analysis of the deposited data

Results flagged for a closer look

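EMX2 in germ cell-like cells had a CPM below both larval values in the female and slightly above both in the male. Larval libraries 1 and 2 had 5.21 (4.61 to 5.88) and 4.42 (3.90 to 4.99) CPM, the female 1.97 (1.32 to 2.83) and the male 5.53 (5.22 to 5.85). The log2 ratio to the larval mean was -1.29 in the female and 0.20 in the male. The difference between these ratios was not tested, since each sex has 1 library, and the male interval overlapped that of larval library 1. Different clusters held these cells: 19 and 24 in the larvae, at 3.87 to 8.35 CPM, 29 in the female at 1.90, and 0 and 1 in the male at 5.55 and 5.46. Median depths also differed, from 8030 counts in the male to 22040 in larval library 2. With cells thinned to 1875 counts the values were 6.22, 4.35, 4.57 and 5.18 CPM in larval library 1, larval library 2, the female (5 cells with a count) and the male; thinning gives every cell the same weight, whereas CPM weights deep cells more. The part of cluster and depth in the result was not tested.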

How the results depend on the processing

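No paired analysis was possible because the labels give no pairing between the libraries of the groups compared. With DESeq2, WT1 over all cells was called at -1.35, and the genes called numbered 1768 over all cells, 3045 over somatic and 593 over germ cell-like cells. Without TMM, EMX2 in germ cell-like cells turned to -0.34 and 1072 genes were called in somatic cells (81 higher and 991 lower, against 279 and 408), while the doubled count minimum left 78. Without renal tubule-like cells, an alternative chosen after seeing the data, 2861 were called and WT1 stood at -0.74. Leaving out 1 library at a time, log2 fold changes ranged over all cells from -0.263 to -0.011 for EMX2 and from -1.81 to -1.08 for WT1. In somatic cells they ranged from -0.27 to -0.23 and from -1.46 to -0.27, and in germ cell-like cells from -0.83 to 0.59 and from -1.09 to -0.80. The genes called ranged from 0 to 13221 over all cells, from 0 to 10548 in somatic and from 0 to 11995 in germ cell-like cells; the high counts come with 1 transformer library left out, which leaves the larval pair alone to set the spread. In germ cell-like cells EMX2 was -0.05 without larval library 2, -0.83 without the male and 0.59 without the female. With TMM library sizes the female to male log2 ratio in somatic cells was -0.024 for EMX2, against 0.30, and -1.24 for WT1. Other library levels moved with TMM or the doubled minimum without a change of order between larvae and transformers over all or somatic cells. The gaps narrowed with TMM, however. EMX2 over all cells was then 7.43 and 7.31 CPM in the larval libraries, 7.14 in the female and 6.155 in the male. WT1 in somatic cells was 6.38 and 7.09 CPM in the larval libraries, 2.43 in the female and 5.73 in the male. No intervals were computed on that scale, so whether these gaps exceed counting error was not tested. Of the class levels under other clusterings or thinning, 109 stayed within the Poisson interval of the main value and 7 moved outside it. That interval covers counting error only. Some levels could not move, since each clustering gave the same larval renal tubule-like cells. A class absent under a clustering, such as male stromal-like cells with each library clustered on its own, was not counted. Depth limits what single cells show: at most 5.29% of the cells of a library held a WT1 count and at most 7.41% an EMX2 count.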
